A study of Danio rerio with 5 samples.

Results

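The gene expression of wild-type adult zebrafish kidney was described from bulk RNA sequencing of 3 libraries, out of 5 in the series. The 3 libraries were chosen by their genotype label, WT, and are called wild type 1, 2 and 3 after the numbers in the labels. Each held total RNA of a pool of 3 kidneys from fish of strain EK aged about 2.5 months, which carried no named allele, transgene or treatment. The other libraries of the series came from siblings without functional runx1 (del8, hg96) and were not analysed here. With 1 group and no contrast there was nothing to test, so every difference below is a difference between pools, given as values, counts and folds without a p-value. Each pool is 1 sample of several fish, and the labels give neither the sex of the fish nor the order in which kidneys were dissected.

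In fish the kidney is both an excretory organ and the blood-forming organ of the adult. Marrow fills the space around the nephrons and produces nucleated red cells, thrombocytes, granulocytes, macrophages and lymphocytes from stem cells. The nephrons filter plasma at the glomerulus and recover solutes along proximal and distal tubules. The head of the organ also contains the interrenal tissue, the counterpart of the mammalian adrenal cortex, which makes cortisol, together with chromaffin cells, which make catecholamines. Liver and gonad lie close to the kidney in the body cavity. Neither they nor the heart are part of the kidney.

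Globins took more counts than any other gene group compared in wild type 1 and 3, and were exceeded by vitellogenins in wild type 2. No gene of the erythroid list differed 4-fold between pools, whereas most genes of the interrenal, ovary, liver, heart and tubule lists did. Wild type 1 held most interrenal genes at far higher levels than the others, and the rest were highest in wild type 2. Wild type 2 held oocyte genes and the most liver RNA, and almost no heart muscle RNA. Wild type 3 carried the tissue label kidney, yet its tubule markers stood far below those of the other pools. It is therefore called the library labelled kidney, wild type 3, where nephron genes are described.

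Counts assigned to genes numbered between 27631376 and 31369758 per library, which was 60.6% to 65.5% of all reads. For the lowest of these shares the 95% Wilson interval was 60.584% to 60.613%. Levels are given in CPM, counts per 1e6 of the TMM-scaled library size, and 3 counts, the lowest level read as present, came to 0.0879 to 0.109 CPM. Intervals and this limit cover counting error only. At least 1 CPM was reached by 16044, 16301 and 14812 gene IDs in wild type 1, 2 and 3, by 13783 in every pool and by 17684 in any pool. Compared by their counts over genes, each pair of pools gave a chi-square of 167.5 or more per degree of freedom, so none was a copy of another. CPM also depends on transcript length, and lengths were not used here, so an order of CPM between genes is an order of counts and not of molecules. In bulk RNA, fewer cells of a type and less RNA per cell cannot be told apart.

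Globin transcripts were abundant in every pool. Together 17 globin IDs took 12.4%, 9.28% and 17.4% of the counts in wild type 1, 2 and 3, or 13.01% ± 4.09 (SD, n = 3). First by share was an adult alpha globin listed as si:ch211-5k11.8 (RefSeq synonym hbaa1.2), with 6.02%, 4.62% and 8.73% of all counts. Its neighbour in rank hbaa1, also an alpha globin, took 2.47%, 1.99% and 3.84%. Both were highest in wild type 3 and lowest in wild type 2. Of the beta-type globins, which the name table lists under the human symbol HBE1, ENSDARG00000089087 took 2.37%, 1.66% and 3.05% and ENSDARG00000097238 took 1.24%, 0.751% and 1.25%. These globins share much of their sequence, and reads that aligned to several places were set apart by the counting (9.23% to 10.27% of reads), so the split between copies is uncertain.

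The shares of the leading alpha globins within the globin counts varied far less than the globin total. si:ch211-5k11.8 was 48.7%, 49.8% and 50.2% of globin counts in wild type 1, 2 and 3, and hbaa1 was 20.01%, 21.5% and 22.1%. Among the minor globins, hbaa2 was at 772, 998 and 1664 CPM and the embryonic-type hbae4 at 233, 235 and 451 CPM, both lowest in wild type 1. HBE1 ENSDARG00000113599 stood apart, at 14.6, 0.764 and 2.19 CPM, highest in wild type 1 where the globin total was not. The embryonic globins hbae1.1, hbae1.2, hbae1.3, hbae3 and hbbe3 had at most 11 counts in a pool.

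A heme enzyme, a carbonic anhydrase and a ferritin were also among the 10 with the highest mean share. alas2, the first enzyme of heme synthesis in red cells, took 0.686%, 0.533% and 0.932% of counts. cahz, the red-cell carbonic anhydrase of zebrafish, took 0.603%, 0.511% and 0.892%. fth1a, a ferritin heavy chain that stores iron and is not confined to red cells, took 0.660%, 0.506% and 0.918%. By share of counts each of these was highest in wild type 3 and lowest in wild type 2. In CPM cahz was nearly level in wild type 1 and 2, at 5543, 5613 and 8834 CPM.

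The remaining places among the 10 were held by MT-CO1 and by egg-yolk precursors. MT-CO1, a mitochondrially encoded subunit of cytochrome c oxidase, took 1.82%, 1.53% and 1.45% of counts. vtg1, a vitellogenin that the liver of female fish secretes for the growing egg, took 1.82%, 5.45% and 0.0903%, and vtg4 took 0.424%, 1.43% and 0.0263%. In wild type 2 vtg1 was the most abundant gene of the library, at 59833 CPM against 50725 CPM for si:ch211-5k11.8. The 8 vitellogenins together took 4.06%, 11.4% and 0.196% of counts, the widest range of the gene groups in the plot of counts by group. The 84 genes of cytoplasmic ribosomal proteins took 6.77%, 5.75% and 5.31%, and the 13 genes of the mitochondrial genome took 4.65%, 4.05% and 3.15%.

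**Figure D1:**
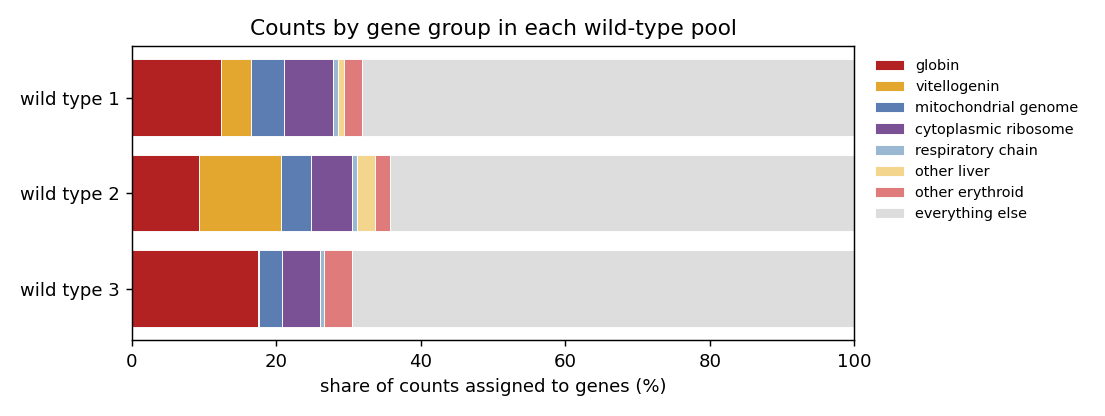
Share of assigned counts (%, horizontal axis) taken by groups of genes in each of the 3 wild-type pools (rows); coloured segments add up to 100%. Globins take 9.28% to 17.4% in all pools, while vitellogenins take 11.4% in wild type 2 and 0.196% in wild type 3.

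Lists of marker genes gave the order of the tissues. A gene of a list was counted where it reached 1 CPM in at least 1 pool, which is met by a gene present in only 1 pool, so shares of a list below describe the list and are set beside the share over all 17684 such genes. By median CPM of the matched genes, the erythroid list (19 genes) stood at 772, 731 and 885 CPM in wild type 1, 2 and 3, above at least 99.1% of the genes kept by the low-count filter in each pool. The thrombocyte list (7 genes) followed at 172, 124 and 191 CPM. Neutrophil genes (11) stood at 60.8, 39.4 and 11.4 CPM, macrophage genes (12) at 31.5, 50.2 and 17.7 CPM, and stem and progenitor genes (12) at 39.4, 33.5 and 22.1 CPM. Below them came B-cell genes (9) at 5.01, 2.69 and 2.08 CPM, T-cell genes (13) at 1.93, 1.93 and 1.004 CPM, and NK-like genes (10) at 1.2015, 1.33 and 0.663 CPM. By median, the first and second ranks and the 3 lymphoid ranks at the bottom had the same order in each pool. The neutrophil, macrophage and stem medians exchanged the places between and overlapped between pools, so no order of these 3 medians held throughout. By geometric mean CPM the order differed. Neutrophil genes (64.4, 35.5 and 16.7) then stood above macrophage genes (27.5, 30.3 and 13.1) in each pool. Stem genes (14.3, 14.3 and 10.8) were below both. In wild type 3, the geometric mean of NK-like genes (1.27) was above that of T-cell genes (0.973).

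**Figure D2:**
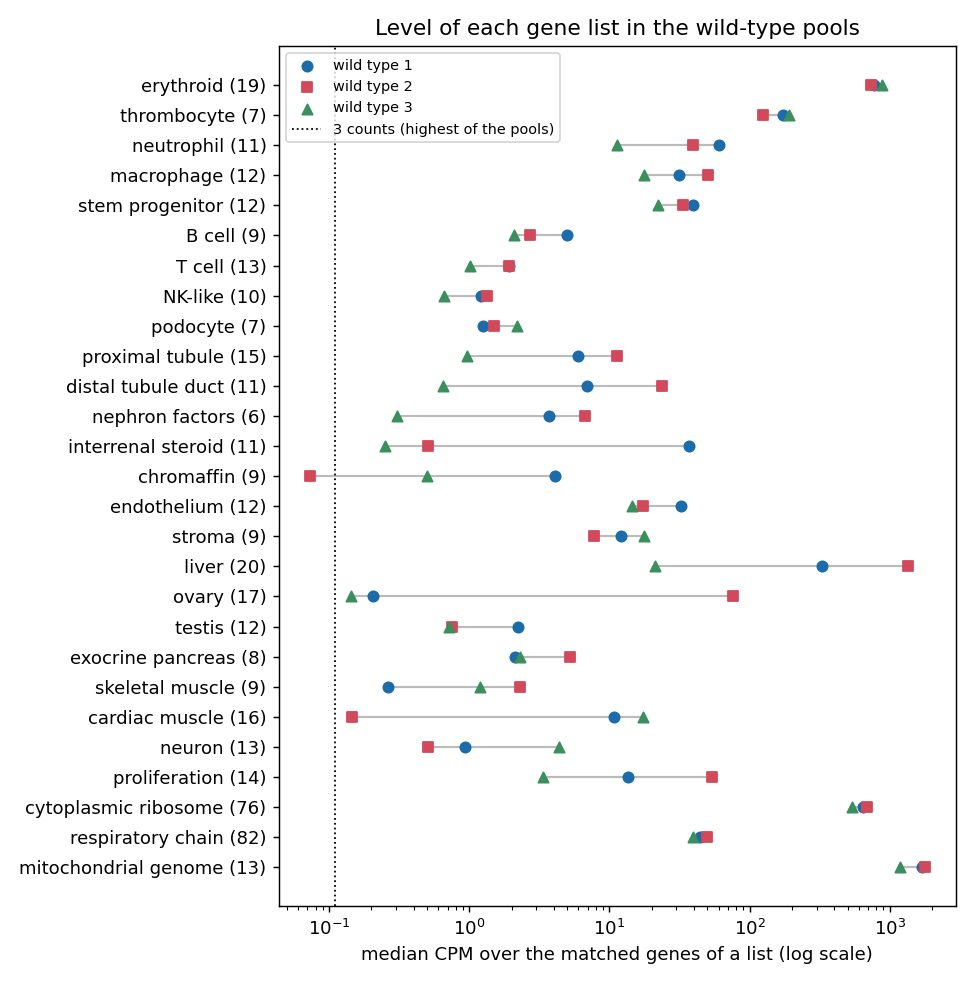
Median CPM over the matched genes of each list (horizontal axis, log scale; number of matched genes in brackets) in the 3 wild-type pools, with the level of 3 counts as a dotted line. Erythroid and thrombocyte points lie close together, while the points of the interrenal, ovary, liver, cardiac and tubule lists lie more than 10-fold apart.

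Within the erythroid list 0 of 19 genes differed 4-fold or more between the highest and the lowest pool, against 22.2% of all genes (folds of this kind carry a prior count of 2). The median gene of the list spanned 1.75-fold, close to the 1.79-fold of all genes. Wild type 3 was the highest pool for 16 of the 19, against 35.7% of all genes. Their median moved with the scaling: when the pools were scaled to the erythroid genes themselves, wild type 1 had the highest median and wild type 3 the lowest. SPTB, a spectrin of the red-cell skeleton, stood at 1331, 1398 and 2331 CPM. The erythroid master regulators gata1a, at 609, 296 and 506 CPM, and klf1, at 478, 332 and 500 CPM, were lowest in wild type 2. UROD, an enzyme of heme synthesis, was the exception that was lowest in wild type 3, at 24.2, 25.3 and 10.2 CPM. tfr1a, the transferrin receptor that brings iron into red cells, was among the 3 steady genes of the list (at most 1.5-fold between pools), which was 15.8% of it against 33.6% of all genes, at 863, 731 and 885 CPM. TAL1 and FECH were the others.

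Thrombocytes, which keep their nucleus in fish, do the work of mammalian platelets. gp9, a subunit of the receptor for von Willebrand factor, stood at 330, 261 and 439 CPM, and itga2b, the integrin CD41, at 315, 263 and 368 CPM. f13a1b, which encodes the A subunit of clotting factor XIII, stood at 197, 140 and 191 CPM. These genes and GP1BB, NFE2 and mpl, the thrombopoietin receptor, spanned at most 1.68-fold. P2RY12, a receptor for ADP, was the exception with 0.352, 6.08 and 0.502 CPM, higher in wild type 2 by more than 4-fold, as were 6.7% of all genes. As in red cells, the pool with the highest thrombocyte median was wild type 3 except under erythroid scaling, where it was wild type 1.

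Neutrophil genes were highest in wild type 1 and, for most, lowest in wild type 3. The highest pool was wild type 1 for 10 of 11 genes, against 24.9% of all genes, and the lowest was wild type 3 for 9, against 43.9% of all genes. npsn, the granule metalloprotease nephrosin, stood at 548, 209 and 28.1 CPM, and lyz, lysozyme, at 91.2, 39.4 and 3.40 CPM. These were the 2 genes of the list that stood more than 4-fold below both other pools in wild type 3, as did 5.71% of all genes. srgn, the granule proteoglycan serglycin, stood at 421, 200 and 92.0 CPM, and cfbl, a complement factor B-like gene, at 178, 152 and 98.3 CPM. MMP9, a secreted protease, went its own way at 22.8, 19.3 and 25.5 CPM. Chosen after their values were seen, 2 more genes had a similar order. The myeloid peroxidase listed as EPX stood at 572, 190 and 35.1 CPM. CXCL12, a chemokine gene that is not a neutrophil marker, stood at 489, 229 and 51.6 CPM. Picked for that order, the 2 add no support to the list. The neutrophil median was highest in wild type 1 and lowest in wild type 3 under every scaling tried.

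Macrophage genes were less spread. Wild type 3 was the lowest pool for 10 of the 11 expressed genes, against 43.9% of all genes. marco, a scavenger receptor, stood at 152, 138 and 66.8 CPM, and the complement genes c1qa, c1qb and c1qc were 2.34-fold to 2.95-fold apart between the highest and lowest pools. ctss2.1, a cathepsin S gene, stood at 27.5, 134 and 8.57 CPM, and was the list's gene with the widest range. slc11a2, an iron transporter that red-cell precursors also use, was steady at 84.7, 66.4 and 77.2 CPM.

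Stem and progenitor regulators were present at middle levels. LMO2, an adaptor of blood transcription complexes, stood at 189, 156 and 284 CPM, IKZF1, the lymphoid regulator Ikaros, at 119, 72.5 and 95.6 CPM, and GFI1B, a repressor of erythroid and megakaryocyte cells, at 112, 60.8 and 96.8 CPM. These 3 genes are also active in maturing red cells, thrombocytes or lymphocytes. CEBPA, a myeloid factor that liver also uses, stood at 75.3, 115 and 18.7 CPM, beside liver genes with the same order of pools. MYB stood at 51.05, 36.1 and 25.5 CPM. RUNX1, the gene disrupted in the other libraries of the series, was low and steady with 139, 90 and 87 counts, or 3.49 ± 0.512 CPM (SD, n = 3). gata2b had 7, 6 and 1 counts, which is at or near the detection limit.

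Lymphoid genes were low in these kidneys. ighm, the heavy chain of IgM, stood at 35.3, 20.4 and 9.86 CPM, and cd37, a tetraspanin of B cells, at 30.9, 16.96 and 19.9 CPM. blnk, an adaptor of the B-cell receptor, stood at 12.1, 11.03 and 4.59 CPM. The recombinase genes RAG1 (1.85, 1.93 and 0.394 CPM) and RAG2 (1.26, 1.27 and 0.394 CPM), which mark the making of lymphocytes, were above the detection limit in each pool. RUNX3, the most abundant gene of the T-cell list, stood at 9.52, 5.86 and 4.66 CPM, and ZAP70, a kinase of T-cell receptor signalling, at 3.05, 2.51 and 1.29 CPM. In the NK-like list fcer1gl, a signalling chain shared by myeloid cells, stood at 67.1, 56.5 and 26.6 CPM while nkl.3, an NK-lysin, was at 3.08, 3.90 and 2.01 CPM. Wild type 3 was the lowest pool for 8 of 9 B-cell genes and for 9 of 9 expressed T-cell genes, against 43.9% of all genes. The class II gene mhc2dab, of the antigen-presentation list, stood at 54.6, 16.1 and 6.09 CPM, whereas b2m, the shared light chain of class I, was steady at 721, 754 and 836 CPM. Of the 7 genes of that list, 4 were lowest and 3 highest in wild type 3, against 43.9% and 35.7% of all genes. mhc2dab was the only 1 that differed 4-fold or more, against 22.2% of all genes.

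Nephron genes were present in wild type 1 and 2 and far lower in the library labelled kidney, wild type 3. Of 14 expressed proximal-tubule genes, 13 were lowest in wild type 3, against 43.9% of all genes, and 9 stood more than 4-fold below both other pools there, against 5.71%. CUBN, the endocytic receptor cubilin, stood at 91.6, 34.4 and 0.824 CPM. SLC22A2, an organic cation transporter, stood at 41.2, 66.7 and 6.88 CPM and SLC5A2, the renal glucose transporter, at 41.03, 24.8 and 1.40 CPM. slc9a3.2, a sodium and proton exchanger, was nearly confined to wild type 2 in these pools, with 14, 1711 and 2 counts. SLC13A1 was the gene that was not lowest in wild type 3, at 0.821, 0.874 and 1.18 CPM.

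Most distal tubule and duct genes were also lowest in wild type 3, but 4 of 11 were not. CDH17, a cadherin of zebrafish tubules and ducts, stood at 189, 295 and 3.76 CPM, and atp1a1a.4, a sodium pump subunit, at 212, 249 and 4.95 CPM. SLC12A1 and SLC12A3, the salt cotransporters of the diluting and distal segments, stood at 34.96, 23.8 and 0.645 CPM and at 30.7, 32.9 and 0.394 CPM. In all, 7 of 11 genes of this list were lowest in wild type 3, where 43.9% of all genes were, and 7 were more than 4-fold below both other pools there, where 5.71% were. The 4 exceptions were SLC41A1, a magnesium transporter, at 30.4, 29.4 and 56.2 CPM, the kidney and lymphoid factor GATA3 at 5.04, 9.21 and 6.31 CPM, the receptor kinase RET at 2.84, 1.46 and 4.26 CPM, and slc12a10.3, a cotransporter with 4, 327 and 5 counts. Of the transcription factors that pattern the nephron, HNF4A, which liver also uses, stood at 10.02, 26.8 and 0.287 CPM. The source of the HNF4A transcripts was not tested. PAX8 had 60, 198 and 2 counts. EMX1 had 73, 287 and 1 counts, and OSR1, which also marks mesenchyme, ran the other way at 6.04, 1.67 and 10.6 CPM.

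Podocyte genes were mixed. The filtration-slit gene NPHS1, which defines podocytes, had 18, 45 and 2 counts, or 0.527, 1.64 and 0.0717 CPM. It was thus low in each pool and below the limit of 3 counts in wild type 3, and it was highest in wild type 2, as the medians of both tubule lists were. podxl, which endothelium and thrombocytes also express, was steady at 47.6, 35.06 and 38.4 CPM. CD2AP, an adaptor found in many cells, stood at 22.8, 37.4 and 9.64 CPM. wt1b, a factor that other mesenchyme also expresses, was highest in wild type 3, at 1.23, 1.49 and 3.69 CPM. The 3 tubule and nephron-factor lists had their lowest median in wild type 3 under every scaling tried, but the podocyte median did not.

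Interrenal genes were found mainly in wild type 1. STAR, which carries cholesterol into mitochondria for steroid synthesis, had 46244, 10 and 11 counts, or 1355, 0.364 and 0.394 CPM. cyp21a2, steroid 21-hydroxylase, had 6188, 4 and 3 counts, and cyp17a2, a 17-hydroxylase of fish cortisol synthesis, had 3036, 20 and 1. hsd3b1, cyp11c1, the mitochondrial ferredoxin fdx1b and mc2r, the receptor for the pituitary hormone ACTH, had between 410 and 2557 counts in wild type 1 and at most 36 in the others. So 7 of 10 expressed genes were more than 4-fold above both other pools in wild type 1, against 0.746% of all genes. The other 3 were highest in wild type 2: hsd3b2 had 1, 122 and 1 counts, CYP17A1 stood at 1.17, 16.5 and 0.251 CPM and NR0B1 at 7.502, 18.9 and 0.645 CPM. Those 3 are also known from gonads, and wild type 2 is the pool with oocyte genes described below. The source of these 3 transcripts was not tested. The limit of 1 CPM was met by 9, 4 and 1 interrenal genes in wild type 1, 2 and 3. Of the list, 4 genes passed the low-count filter. The count of 7 genes above both other pools thus partly follows from how genes were admitted.

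Most chromaffin genes were also highest in wild type 1, 6 of 7 expressed genes, against 24.9% of all genes. PHOX2A was highest in wild type 3. The limit of 1 CPM was met by 7, 0 and 4 chromaffin genes in wild type 1, 2 and 3. Only 1 gene of the list passed the low-count filter. The count of 6 thus partly follows from how genes were admitted. DBH and TH, enzymes of catecholamine synthesis, had 1705, 1 and 2 counts and 600, 2 and 2 counts, and pnmt, which makes adrenaline, had 143, 0 and 0. Where a pool had 0 counts, 3 counts would have been 0.109 CPM in wild type 2 and 0.108 CPM in wild type 3. scg2b (337, 0 and 134 counts), SLC18A2 (139, 6 and 63), DDC (118, 4 and 68) and PHOX2A (55, 3 and 61), which neurons share, were present in wild type 3 too and more than 4-fold lower in wild type 2, as were 1.25% of all genes. A marker of the corpuscles of Stannius, calcium-regulating glands on the fish kidney, was matched only through CASR, with 24, 8 and 0 counts.

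Vessel and stroma genes were present in each pool. kdrl, a VEGF receptor, stood at 52.9, 40.2 and 35.1 CPM, and cdh5 and tek, general endothelial genes, were steady. The sinusoid scavenger receptor stab2 stood at 82.8, 8.05 and 8.24 CPM, and plvapa, of fenestrated vessels, at 22.9, 26.0 and 2.29 CPM. vwf, von Willebrand factor, stood at 41.2, 7.499 and 109 CPM. The endothelial list thus held genes highest in different pools. Of 12 genes, 7 were highest in wild type 1, 1 in wild type 2 and 4 in wild type 3. Over all genes these shares were 24.9%, 39.4% and 35.7%. Of stroma genes, col1a1a, a fibrillar collagen, stood at 110.1, 57.7 and 100.4 CPM, the smooth-muscle actin acta2 at 66.7, 17.8 and 188 CPM, and COL1A2 at 81.1, 38.3 and 73.5 CPM. For 7 of 9 stroma genes wild type 2 was the lowest pool, against 33.2% of all genes.

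Liver RNA was present in each pool and differed in amount. All 19 expressed liver genes varied 4-fold or more, where 22.2% of all genes did. All 19 were highest in wild type 2 and lowest in wild type 3, against 39.4% and 43.9% of all genes. Their list median stood at 331, 1356 and 21.04 CPM. tfa, transferrin, stood at 2140, 6898 and 144 CPM, and fabp10a, the fatty-acid binding protein of fish liver, at 204, 1646 and 20.03 CPM. The level in wild type 1 over that in wild type 3 had a median of 16.9-fold over the 19 genes, with a range of 2.68-fold to 26.4-fold. RBP4, a retinol carrier made outside the liver too, had the smallest range between pools, 8.57-fold, where the list's median was 58.3-fold and that of all genes 1.79-fold.

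Vitellogenin is a product of estrogen-exposed liver. vtg1 was 44.9%, 47.8% and 46.0% of vitellogenin counts in wild type 1, 2 and 3, whereas vtg2 was 14.4%, 9.66% and 10.8%, highest in wild type 1. vtg8, the least abundant, was 0.0308%, 0.0399% and 0.0978%, highest in wild type 3. In wild type 2 over 1 the vitellogenins had a median of 3.46-fold and the liver list 3.53-fold. In wild type 1 over 3 these medians were 19.8-fold and 16.9-fold. The liver list includes vtg1, vtg2 and vtg3, so these medians share genes and are not independent. The share of females in each pool was not given.

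Ovary genes were found in wild type 2. All 17 expressed genes of the list were more than 4-fold above both other pools there, against 6.7% of all genes. Only 3 of the 17 passed the low-count filter, and most of the others met the limit of 1 CPM through wild type 2 alone. h1m, a maternal linker histone, had 8, 7809 and 17 counts, and zp3b, an egg-coat protein, had 71, 7185 and 65. buc, which organises the Balbiani body of the oocyte, had 58, 6395 and 17 counts, and zp3 had 0, 3021 and 4. The germ-cell genes DDX4 (vasa) and DAZL, which are shared with testis, kept levels above the limit in wild type 1, with 148, 567 and 6 counts and 64, 603 and 4 counts. Testis genes were low: 8 of 10 expressed genes were highest in wild type 1, against 24.9% of all genes, among them amh (118, 15 and 28 counts), gsdf (126, 27 and 8 counts), SYCP3 (124, 7 and 23 counts) and insl3 (67, 0 and 1 counts). PIWIL1, of both gonads, was the most abundant of that list at 11.8, 17.1 and 0.717 CPM, followed by DMRT1 at 4.31, 1.09 and 2.08 CPM. The limit of 1 CPM was met by 10, 4 and 3 testis genes in wild type 1, 2 and 3. Of the testis list, 5 genes passed the low-count filter. The count of 8 thus partly follows from how genes were admitted.

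Heart muscle genes were lowest in the pool where ovary genes were highest. That list was written after the data had been seen. The limit of 1 CPM was met by 14, 4 and 14 heart genes in wild type 1, 2 and 3. Counts over the list thus partly follow from how it was made and how genes were admitted. Wild type 2 was the lowest pool for 15 of 15 expressed genes, against 33.2% of all genes, and 12 stood more than 4-fold below both other pools there, against 1.25%. MYL7, the atrial and ventricular light chain of zebrafish heart, stood at 285, 0.400 and 385 CPM. MYBPC3, cardiac myosin binding protein C, stood at 43.1, 0.510 and 181 CPM, and nppa, the atrial natriuretic peptide, at 141, 0.146 and 30.3 CPM. nppa was thus highest in wild type 1 and MYBPC3 in wild type 3. myh6, an atrial myosin named after its values were seen, had 12140, 9 and 15959 counts. The skeletal muscle list was low, and its median of 0.264, 2.29 and 1.18 CPM was highest in wild type 2 under every scaling tried. Its genes went different ways. ckma, a muscle creatine kinase that heart shares, stood at 47.5, 5.02 and 56.3 CPM and ckmb at 18.6, 10.01 and 8.92 CPM. The muscle parvalbumins pvalb1 (7, 90 and 33 counts) and pvalb2 (5, 63 and 31 counts) were highest in wild type 2, as was the fast myosin myhc4 (7, 277 and 39 counts), which is not on the list and was named after its values were seen. The fast myosins myhz2 and myhz1.1, which also mark skeletal muscle, had at most 6 counts in a pool.

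Nerve genes, another list written after the data had been seen, were highest in wild type 3 for 10 of 12 expressed genes, against 35.7% of all genes. There 6 were more than 4-fold above both other pools, against 0.447% of all genes. The limit of 1 CPM was met by 12 genes in wild type 3 and by 6 in each other pool. These counts thus partly follow from how the list was made. SYT1, a synaptic vesicle protein, stood at 6.68, 2.55 and 29.3 CPM. CHAT, which makes acetylcholine, had 5, 0 and 447 counts, VIP, a neuropeptide, had 17, 7 and 135, and PRPH, a filament of peripheral neurons, had 15, 2 and 119. UCHL1, which oocytes also express, was highest in wild type 2, at 1.73, 118 and 4.37 CPM, and 1 other gene was highest in wild type 1.

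Other organs contributed little by the genes matched to 1 ID. Exocrine pancreas genes matched to 1 ID were between 0.430 and 38.6 CPM. Among them ela2l stood at 22.9, 19.6 and 38.6 CPM, ela2 at 11.7, 8.48 and 15.2 CPM and prss1, trypsin, at 1.99, 6.04 and 2.65 CPM. CPA1 had a shared symbol and was left out, and its ID ENSDARG00000021339 stood at 164, 76.8 and 17.7 CPM. The intestinal list was led by genes that liver shares, apoa4b.1 at 36.0, 118 and 2.04 CPM and MTTP at 10.8, 28.4 and 0.323 CPM, and FABP6, an ileal gene, had 2, 0 and 0 counts. Of the adipose genes matched to 1 ID, cfd was the highest at 44.7, 22.6 and 41.8 CPM. plin1, the coat of fat droplets, had 92, 230 and 1 counts. LPL was left out of the list for its shared symbol, and its ID ENSDARG00000087697 stood at 33.8, 301 and 24.5 CPM. Pigment genes were at most 3.49 CPM, and SLC24A5 and OCA2, which define melanocytes, had at most 3 counts.

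**Figure D3:**
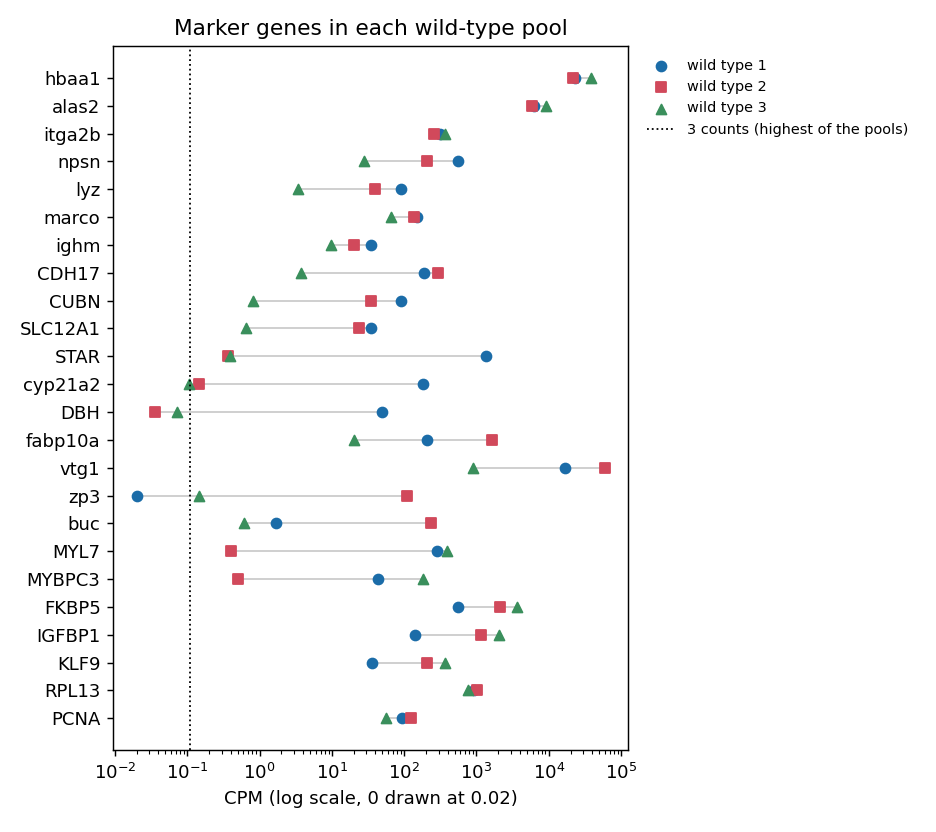
CPM of 24 marker genes (rows; horizontal axis logarithmic, 0 drawn at 0.02) in the 3 wild-type pools, with the level of 3 counts as a dotted line. hbaa1, alas2 and itga2b lie close together, whereas STAR is at 1355 CPM in wild type 1, zp3 and buc stand out in wild type 2, MYL7 is at 0.400 CPM in wild type 2, and CDH17 and CUBN are lowest in wild type 3.

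Cell-cycle genes were highest in wild type 2 for 13 of 14 genes, against 39.4% of all genes, and lowest in wild type 3 for all 14, against 43.9%. The replication genes PCNA (94.1, 125 and 56.8 CPM) and MCM2 (37.1, 57.4 and 21.6 CPM) were 2.21-fold and 2.65-fold apart. The mitotic genes CCNB1 (10.7, 198 and 2.54 CPM), CCNA2 (10.7, 110.4 and 2.26 CPM) and plk1 (12.95, 117 and 6.85 CPM), which oocytes store as messenger RNA, were between 16.9-fold and 76.0-fold apart. mki67, a marker of dividing cells, stood at 56.8, 71.4 and 11.3 CPM. MCM3 alone was highest in wild type 1, at 14.07, 6.04 and 1.68 CPM. Wild type 2 also held the ovary genes above, and the part of the oocyte in these values was not tested.

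Interferon-response genes were highest in wild type 3 for 6 of 9 expressed genes, against 35.7% of all genes, but under erythroid scaling their highest median was in wild type 2. isg15, a ubiquitin-like antiviral protein, stood at 54.9, 99.7 and 154 CPM, RSAD2, viperin, at 86.6, 87.7 and 114 CPM, and IRF7 at 50.4, 43.9 and 94.5 CPM. Stress genes of the immediate-early class were highest in wild type 3 for 6 of 10 genes, against the same 35.7%, and their highest median also moved to wild type 2 under erythroid scaling. The heat-shock gene hsp70l stood at 26.1, 13.7 and 20.4 CPM, and egr1, an early-response factor, at 12.2, 7.10 and 11.1 CPM. DUSP1, a MAP kinase phosphatase, stood at 124, 265 and 419 CPM, ATF3 at 52.02, 52.5 and 109 CPM, and BTG2 at 35.8, 143 and 151 CPM.

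Over all genes past the low-count filter, most levels (10404 genes) lay within 2-fold between the pools, and a minority differed 4-fold or more. Among the 16442 genes past the low-count filter, 6174 (37.6%) were steady at 1.5-fold, and 2203 (13.4%) differed 4-fold or more. The median gene had a range of 1.66-fold between its highest and lowest pool, the quartiles were 1.35-fold and 2.51-fold, and 90% of genes lay below 5.17-fold. The common biological coefficient of variation, the spread of a gene beyond counting error as edgeR estimates it, was 0.505, and 0.604 without wild type 1. Without wild type 1, 2 or 3 in turn, 1853, 957 and 960 genes differed 4-fold or more and 8183, 10145 and 11350 were steady. Counting error was small beside this spread. The median coefficient of variation between pools was 27.02%, whereas counting alone gave 5.27%.

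The low-count filter removed genes that were low in any pool, also where they were abundant in the others. Among the 17684 genes with at least 1 CPM in any pool, a set chosen after seeing the data, 3928 (22.2%) differed 4-fold or more. Of these, 2749 (70%) were highest in wild type 2 and 2806 (71.4%) were lowest in wild type 3. In the same set 1184 genes (6.7%) were more than 4-fold above both other pools in wild type 2, against 132 (0.746%) in wild type 1 and 79 (0.447%) in wild type 3. Genes more than 4-fold below both others numbered 1009 (5.71%) in wild type 3, 221 (1.25%) in wild type 2 and 42 (0.238%) in wild type 1. Past the filter, the genes above both others were 36 (0.219%), 496 (3.02%) and 24 (0.146%) in wild type 1, 2 and 3, and those below both others were 24 (0.146%), 86 (0.523%) and 658 (4%). With 1 pool left out, 1659 genes were more than 4-fold higher in wild type 2 than in 3 and 194 lower, 856 were higher in wild type 1 than in 3 and 101 lower, and 776 were higher in wild type 2 than in 1 and 184 lower.

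By the share of genes within 1.5-fold, wild type 1 and 2 were the closest pair, at 67.5%. Wild type 1 and 3 had 60.5% and wild type 2 and 3 had 50.5%. By chi-square per degree of freedom wild type 1 and 3 were closest, at 167.5 against 174.7 for 1 and 2. Of 37 lists with at least 3 matched genes, 16 had medians that differed 4-fold or more between pools, and 7 did so without wild type 3. The 16 were the tubule, nephron-factor, interrenal, chromaffin, neutrophil, proliferation, liver, vitellogenin, ovary, intestine, heart, skeletal muscle, nerve, adipose and pigment lists. With the mean of log2 CPM in place of the median, 13 lists differed 4-fold or more. Some of the 16 had low medians, as the pigment list at 0.322, 0.965 and 0.215 CPM.

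**Figure D4:**
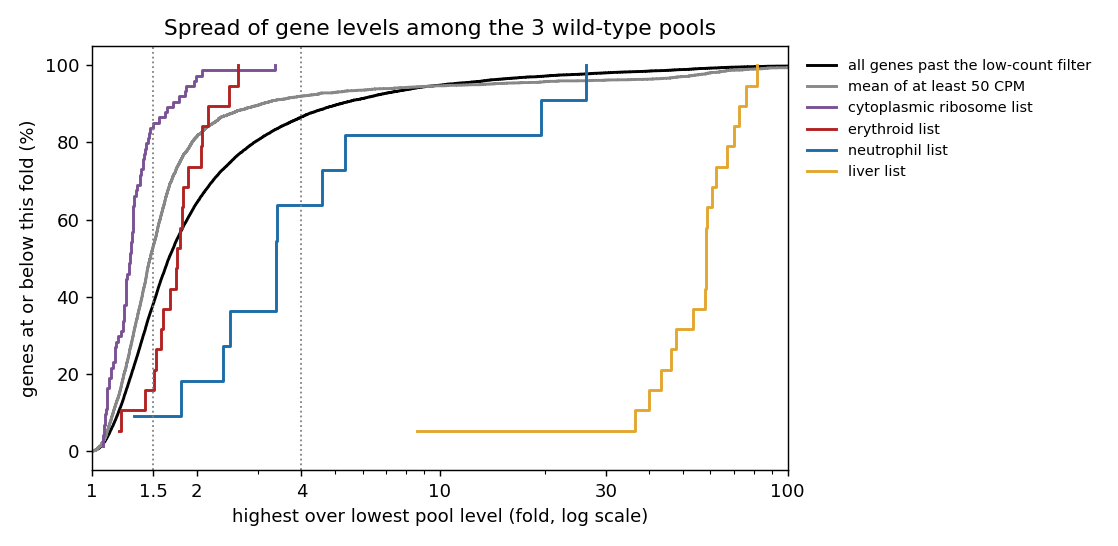
Cumulative share of genes (%, vertical axis) whose highest pool is at or below a given fold of the lowest pool (horizontal axis, log scale); dotted lines mark 1.5-fold and 4-fold. The drawn folds carry a prior count of 2. Without it, 37.6% of all genes past the low-count filter lay within 1.5-fold. Ribosomal protein genes lie to the left of the line of all genes, and liver genes start at 8.57-fold.

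For 8 of the 10 steadiest abundant genes the pools differed by less than counting error. Genes picked for the smallest spread among 3250 tend to fall below it, so this count is no evidence of steadiness. The 10 genes with the smallest SD of log2 CPM among those with a mean of at least 50 CPM were adam10a, tnpo2a, sec24c, RAB8B, PNPLA6, NUP155, TM9SF2, EIF3A, VCP and stx4. adam10a, a membrane protease that sheds receptors, stood at 212, 214 and 213 CPM, a coefficient of variation of 0.362%. Counting error at its depth would give 1.25%, more than the pools differed. tnpo2a, a nuclear import carrier, stood at 187, 187 and 189 CPM, and VCP, an unfolding ATPase of protein quality control, at 514, 517 and 525 CPM. EIF3A, a translation initiation factor, stood at 396, 396 and 388 CPM. All 10 were among the 100 steadiest with DESeq2 size factors, but 3 were with upper quartile scaling and 0 with library totals or erythroid scaling. Without wild type 1, 2 or 3 in turn, 10, 7 and 4 of them were.

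Of 19 reference genes often used to scale RT-PCR, 11 were steady (57.9%) and 0 differed 4-fold, where 33.6% and 22.2% of all genes did. Their medians were 396, 227 and 208 CPM, but their geometric means were 300, 297 and 230 CPM. The lower median of wild type 2 against wild type 1 thus depended on the summary. Among filtered genes with a mean of at least 50 CPM, 53.25% were steady, so the reference list was near the share of abundant genes. RPS18, a ribosomal protein, stood at 804, 728 and 745 CPM, or 1.105-fold apart. RPLP0, RPL13, RPL13A, SDHA, lsm12b, MOB4, ywhaz, POLR2D and tuba1b were also steady. Commonly used genes were less even. eef1a1l1, a translation elongation factor, stood at 5438, 7327 and 3230 CPM, and ppiaa, cyclophilin A, at 632, 833 and 289 CPM, the widest of the list at 2.88-fold. GAPDH (2.35-fold), TBP (2.33-fold), actb1 (2.06-fold), GAPDHS (1.91-fold), HPRT1 (1.77-fold) and actb2 (1.62-fold) lay between.

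Ribosomal and respiratory genes lay within a narrow range. Of 74 expressed ribosomal protein genes 63 were steady (85.1%), against 33.6% of all genes and 53.25% of those with a mean of at least 50 CPM. In wild type 3, 67 were lowest, against 43.9% of all genes. RPL22L1, a ribosomal protein paralog, had the widest range at 135, 221 and 65.7 CPM, or 3.36-fold. The list median was 646, 687 and 541 CPM, highest in wild type 2 but highest in wild type 1 under upper quartile scaling or library totals. Of 77 nuclear genes of the respiratory chain 52 were steady and 3 differed 4-fold, where 33.6% and 22.2% of all genes did. The widest was cox6b1, a cytochrome c oxidase subunit, at 42.9, 49.7 and 9.07 CPM. All 13 mitochondrially encoded genes were highest in wild type 2 and lowest in wild type 3, where 39.4% and 43.9% of all genes were, with ranges of at most 1.85-fold, and the highest median moved to wild type 1 under upper quartile scaling or library totals.

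The 10 most variable abundant genes were each high in a single pool. Of the 10 with the largest SD of log2 CPM among 3250 genes with a mean of at least 50 CPM, 9 were highest in wild type 2 and the other was STAR. Those 9 are listed under clone names, which give no function: si:dkey-46g23.5, zgc:171750, zgc:173770, zgc:171977, si:ch1073-263o8.2, zgc:165539, zgc:171474, si:dkey-46g23.3 and zgc:152652. zgc:152652, the most abundant of them, had 12, 26147 and 15 counts, and si:dkey-46g23.5, the most variable, had 3, 8611 and 0. Of the 40 most variable genes, 34 were highest in wild type 2, against 39.4% of all genes and 70% of those varying 4-fold. The set rested on that pool: without wild type 2, 1 of the 10 stayed among the 100 most variable, against 9 without wild type 1 and 10 without wild type 3.

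**Figure D5:**
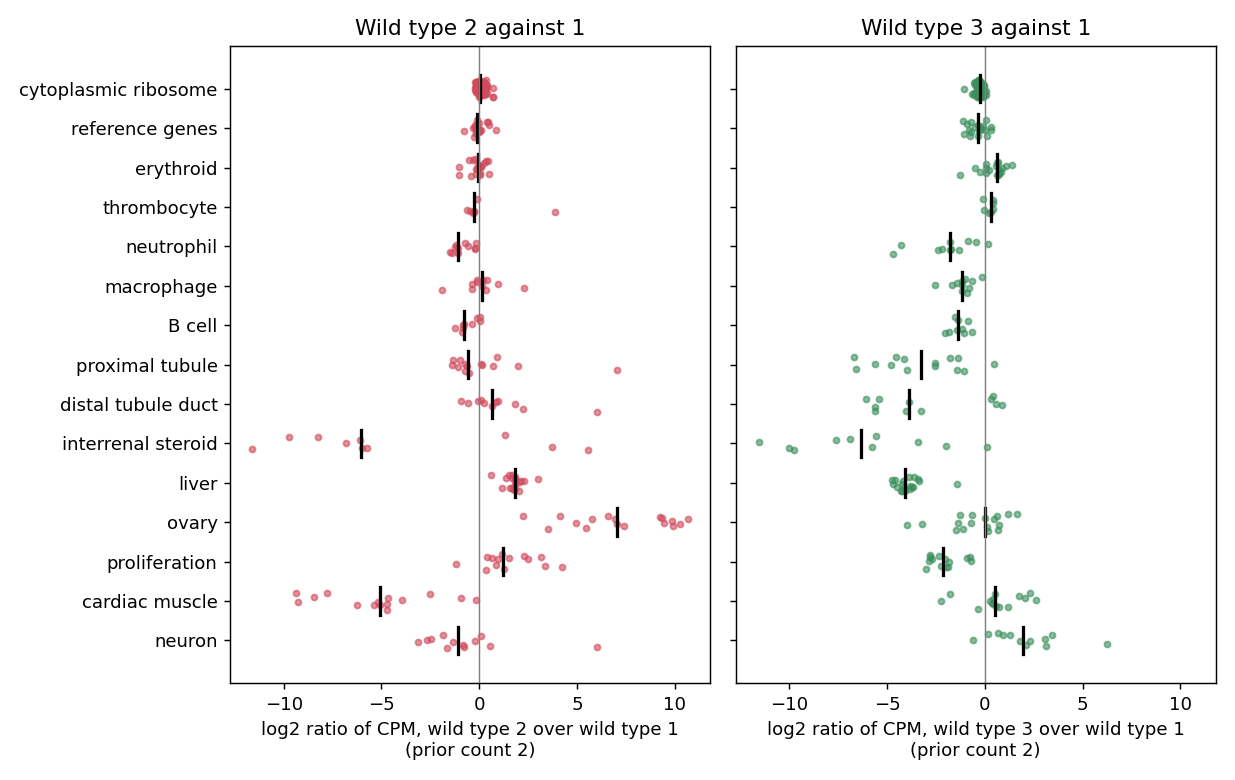
Log2 ratio of CPM (prior count of 2) of each expressed gene of 15 lists (points) in wild type 2 over 1 (left) and wild type 3 over 1 (right), with the list median as a black bar. Ribosomal, reference and most thrombocyte genes lie near 0 in both. In wild type 2, ovary genes lie to the right, and heart genes and most interrenal genes to the left. In wild type 3, liver genes and most tubule and interrenal genes lie to the left.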

How the data were processed

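RNA of 3 pools of wild-type kidneys was sequenced as paired-end TruSeq RNA v2 libraries, per the labels' protocols. The authors deposited whole-number counts per Ensembl gene ID for each library, not normalized. The submitters' processing notes name HISAT2 2.2.1.0, HTSeq 0.11.4, DESeq2 and the build GRCz11. The annotation release and the strand setting are not given in the sources used here, so overlapping and antisense genes are uncertain. Reads given to no gene (34.5% to 39.4%) stayed out of library sizes. Symbols came from a name table, written as it gives them, many in the human form: 29201 of 32520 IDs have one, and 6314 share it with another ID. Of 430 symbols in 30 lists, 322 matched 1 ID and were used, 12 were shared and left out, and 96 had no match. The heart, nerve, glucocorticoid-responsive and clock lists were added after seeing the data. The vitellogenin and mitochondrial genome lists, taken by symbol, were not planned either. Members, lists and tests were chosen with earlier results of these data known.

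Counts were scaled with TMM over the pools (factors 0.910 to 1.09) in edgeR 4.0.16 under R 4.3.3. Genes were kept by filterByExpr (minimum count 10, minimum total 15), which for 1 group of 3 pools drops genes that are low in any pool. The set with at least 1 CPM in any pool was therefore used for lists and for pool-specific genes. Log2 CPM and folds used a prior count of 2. Called steady was a gene with at most 1.5-fold between its pools in CPM without the prior count. Called varying was one with at least 4-fold, with the prior count. A gene high or low in 1 pool was at least 4-fold from both others, with at least 1 CPM on the higher side. Named genes are the 10 with the highest share of counts, the 10 steadiest and 10 most variable with a mean of at least 50 CPM, the 3 most abundant of each list and others that show a list's count, and the reference genes. Others are said to be chosen after their values were seen. A few members that enter the counts are not reported here by name. The calls were tested on simulated data of lower spread than these pools, which does not measure how often they would be wrong here. Alternatives, given in the closing section, were other scalings (DESeq2 1.42.0 size factors, upper quartile, library totals, the erythroid genes), filters, prior counts, limits, list summaries, library sizes without the top 20 genes, and leaving out each pool. Python 3.11.15, pandas 2.3.3 and matplotlib 3.10.9 drew the plots.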

Additional observations from a re-analysis of the deposited data

How the results depend on the processing

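With 1 group of 3 pools, counts of genes depended more on the limits and the filter than on most scalings. Past the low-count filter 2203 genes varied, against 5234 with no filter and 3928 among genes with at least 1 CPM in any pool, a set added after seeing the data. Genes above both other pools in wild type 1, 2 and 3 numbered 36, 496 and 24 past the filter, 128, 1172 and 84 without it, and 132, 1184 and 79 at 1 CPM in any pool. Genes below both numbered 24, 86 and 658 past the filter, 41 and 222 in wild type 1 and 2 without it, and 42, 221 and 1009 at 1 CPM in any pool. The cause is the filter's construction, since with 1 group it removes every gene that is low in any pool. A 2-fold limit made 10404 genes steady, where 1.5-fold made 6174. An 8-fold limit left 1045 varying genes, with 7, 154 and 0 above and 5, 33 and 314 below both others in wild type 1, 2 and 3. Scaling to the erythroid genes gave 63 genes above both others in wild type 1, 6 in wild type 3, and 1182 below both in wild type 3. It moved the median log2 level of wild type 3 against wild type 1 by -0.57. Library totals moved wild type 2 against 1 by -0.26 and 3 against 1 by -0.11, and upper quartile scaling moved 2 against 1 by -0.12.

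Leaving out each pool gave 8183 to 11350 steady and 957 to 1853 varying genes. Genes above the remaining pool ranged from 184 to 856 in wild type 1, from 776 to 1659 in wild type 2 and from 101 to 194 in wild type 3. Genes below it ranged from 101 to 776, from 184 to 194 and from 856 to 1659. Lists with medians at least 4-fold apart numbered 7 to 13, against 16 with all pools, and the common biological coefficient of variation was 0.440 to 0.604, against 0.505. These fits compare 2 pools, so fewer genes can vary. Of 518 list medians recomputed under the alternatives 499 moved by less than the spread between pools, as did 1521 of 1788 log2 ranges of named genes. No paired analysis was possible because there is 1 group. Levels per length were not run, for want of transcript lengths. Depth limits levels below 0.109 CPM, and 3 pools give no measure of how often a kidney carries tissue of another organ.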

Other observations

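Genes known to respond to glucocorticoids differed between the pools. The list was written after these values had been seen, and its direction is therefore no independent evidence. Of 13 expressed genes, 8 were lowest in wild type 1 and 8 were highest in wild type 3, where 22.9% and 35.7% of all genes were. FKBP5, a chaperone partner of the glucocorticoid receptor, stood at 554, 2117 and 3618 CPM in wild type 1, 2 and 3. IGFBP1, a stress-responsive binding protein of insulin-like growth factor, stood at 140, 1170 and 2035 CPM. KLF9, a transcription factor, stood at 36.0, 207 and 371 CPM, and sgk1, a salt-handling kinase, at 284, 644 and 1146 CPM. Each of these 4 had the same order of pools, with no tie. IGFBP1 and KLF9 in wild type 1 were also more than 4-fold below both other pools, as were 0.238% of all genes.

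Other members did not share that order. tsc22d3 was highest in wild type 2, at 70.9, 223 and 78.8 CPM, and PCK1, a liver and tubule enzyme, stood at 2.05, 30.9 and 0.502 CPM, in the order of the liver genes. NR3C1, the receptor itself, stood at 234, 215 and 346 CPM, and nfkbiaa and HSD11B2 were steady. The list's median was highest in wild type 2 under every scaling tried, at 62.1, 207 and 78.8 CPM. It was lowest in wild type 1 under TMM, DESeq2, upper quartile and total scaling, and in wild type 3 under erythroid scaling. The pool with low FKBP5, wild type 1, was the pool with interrenal genes, at 1355 CPM of STAR against 0.364 and 0.394 CPM. With 3 pools, the relation between these values was not tested.

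Clock genes, a list also written after the data had been seen, were highest in wild type 3 for 10 of 14 expressed genes and 0 of them varied 4-fold, where 35.7% and 22.2% of all genes did. nr1d2a, a nuclear receptor of the clock, stood at 349, 716 and 1265 CPM, NR1D2 at 384, 321 and 585 CPM, and tefa, a clock output factor, at 287, 220 and 354 CPM. PER2, a light-induced clock gene, was among the steadiest genes at 60.6, 58.6 and 57.9 CPM. Under erythroid scaling the highest clock median was in wild type 2. The time of day of dissection is not given in the sources used here.

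Other genes low in wild type 1, chosen after their values were seen, were SIK1, a kinase, at 128, 625 and 811 CPM, and NOCT, a deadenylase-family gene, at 11.1, 56.9 and 71.0 CPM. mibp, listed among the most abundant genes, stood at 1517, 4434 and 8990 CPM.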
